A study of Mus musculus with 6 samples.

Results

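The expression state described here was that of mouse embryonic stem (ES) cells with a control short hairpin RNA (shCtrl) after 3 days of culture without leukaemia inhibitory factor (LIF). It was read from the 3 arrays titled as sh Ctrl, numbered shCtrl 1, 2 and 3, out of 6 arrays in the series. The other 3 arrays held the same cells with a hairpin against Atad2 (shAtad2), likewise 3 days after LIF removal, and were used in the normalization alone. All these cells were 46C ES cells in which the endogenous Atad2 gene carries a knocked-in tag, and they came from 1 selected clone. 46C is known as a line with a green fluorescent protein reporter at the Sox1 locus. The control hairpin was non-targeting, delivered by a lentiviral pLKO.1 vector, and the cells were a puromycin-selected stable pool. Tag, integrated vector and drug selection were therefore shared by both groups of cells, and unmodified cells and cells kept with LIF are not analysed here. Nothing in the labels states that the 3 samples came from separate cultures, so the spread between them may be technical.

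LIF acts through its receptor, gp130 (Il6st) and Stat3 to hold mouse ES cells in the naive state, which resembles the epiblast of the blastocyst. Without LIF the cells are known to leave this state within days, pass through formative and primed states that resemble the epiblast around implantation, and then enter the primitive streak, the neurectoderm or the endoderm. Fgf, Wnt, Nodal and Bmp signals set these choices, and ES cells are known for intense glycolysis and for a metabolism of threonine, glycine and serine that feeds one-carbon units.

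Each array read 45281 probes. A probe counted as detected where its deposited detection p-value, which ranks its brightness among negative control beads, was under 0.05. Between 17792 and 18513 probes were detected per array (39.3% to 40.9%), and the median unnormalized intensity lay between 130.0 and 138.9. Of all probes, 15683 (34.6%) were detected on all 3 arrays, 1878 on 2, 3416 on 1 and 24304 (53.7%) on none. The 345 probes whose highest detection p lay between 0.04 and 0.05 had a median level of 5.37, and the 279 probes between 0.05 and 0.06 had a median level of 5.28, so that the boundary passed through a continuous range of dim probes. Levels are normalized log2 intensity throughout, as the mean of 3 arrays unless each array is given, and an undetected probe had a median level of 4.54. Through the probe annotation 19057 genes were measured, of which 9062 (47.6%) had a probe detected on all 3 arrays, 821 on 2, 1501 on 1 and 7673 (40.3%) on none. Over the 9062 genes the median level was 8.28, with 25% of them above 9.93 and 1% above 13.84.

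The array shCtrl 3 differed from shCtrl 1 and shCtrl 2 more than these did from each other. Among the 15683 probes, 488 (3.11%) differed at least 2-fold between shCtrl 3 and shCtrl 1, 458 (2.92%) between shCtrl 3 and shCtrl 2, and 27 (0.17%) between shCtrl 1 and shCtrl 2. The median SD of a gene over the 3 arrays was 0.19, and over shCtrl 1 and 2 alone it was 0.10. Of the 9062 genes, 137 (1.51%) were at least 2-fold higher on shCtrl 3 than the mean of shCtrl 1 and 2, and 117 (1.29%) were at least 2-fold lower. These are differences of 1 array from a pair, without a replicate check and without a test, and without background correction 35 genes were higher and 27 lower. The chip on which each array lay is not given in the sources used here, and the cause of the difference was not tested. Gene lists below were chosen with earlier results of these data known, and some share genes. A list share beside these percentages may therefore come from that choice. Counts of list members detected stand beside the 47.6% of all genes.

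The order of genes by level is an order of probe brightness and not of transcript number, since probes bind with different strength. In 3242 genes with at least 2 probes detected on all 3 arrays, the brightest and dimmest probe of the same gene differed by a median of 1.60 on the log2 scale, and by at least 4.28 in 10% of them. Of 9172 genes with more than 1 probe, 2920 had a probe detected on all 3 arrays beside another detected on none. A gene without a detected probe is therefore not shown to be silent. Families with a known range of expression gave the scale of both limits. Of 61 cytosolic ribosomal protein genes, 57 (93.4%) were detected on all 3 arrays at a median level of 14.59, although Rps20, Rps23 and Rpl17, which every cell uses, had no detected probe. All 17 cytosolic tRNA ligases and 33 of 39 proteasome subunits were detected. At the other end, 6 of 1071 olfactory receptors (0.56%) and 2 of 168 vomeronasal receptors (1.19%) were detected on all 3 arrays, with no level above 6.04. Levels up to about that value thus included probes of sensory receptor genes that ES cells are not known to use.

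**Figure D1:**
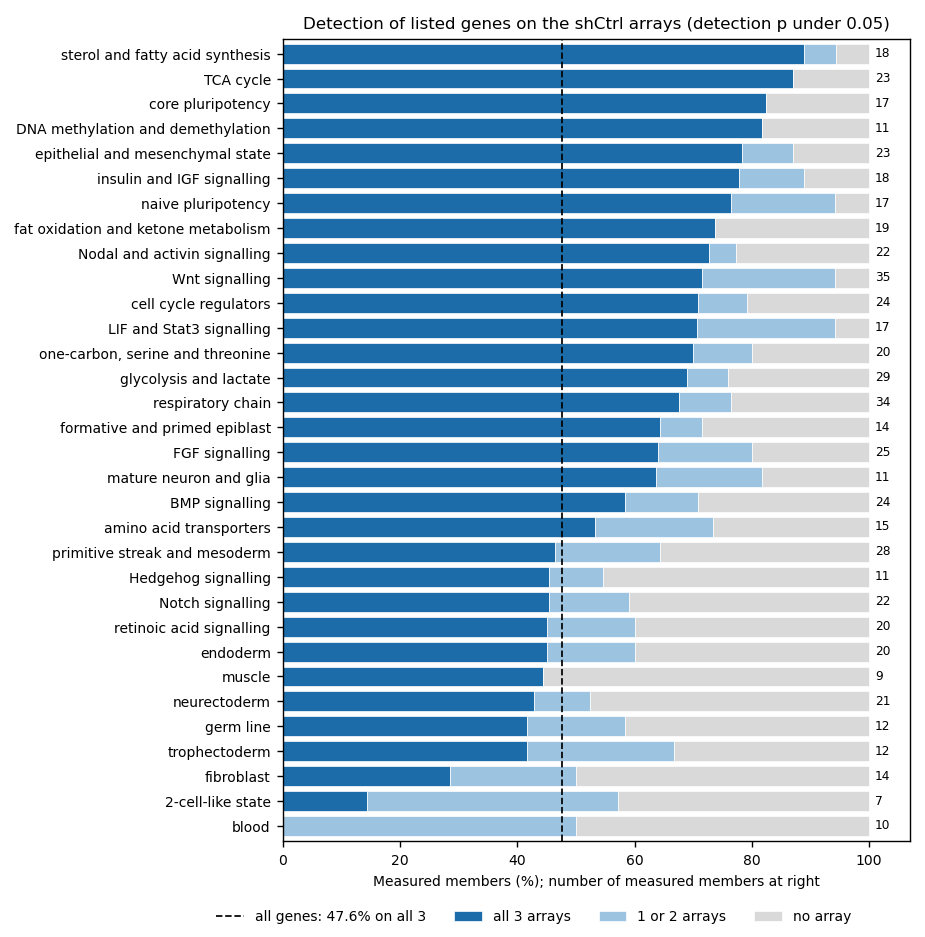
Share of the measured members of each gene list whose best probe was detected on all 3, on 1 or 2, or on no shCtrl array; the number at the right is the number of members measured and the dashed line is the share over all genes, 47.6%. Most metabolic, pluripotency and signalling lists stand above the line, with sterol and fatty acid synthesis at 88.9%, and fibroblast, 2-cell-like and blood lists stand lowest, at 28.6%, 14.3% and 0%.

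The brightest genes were those of translation and packaging common to dividing cells. Rps2, Rps9, Rps29, Rps12, Tuba1b, Eef1a1, H2ac13, Rps24, Rps4x, Mif, Rpl10a, H2ac20, Rps19, Rpl35 and H2ac7 held ranks 1 to 15, at 15.13 to 14.98. Among the 100 brightest genes, 39 encoded ribosomal proteins, 8 encoded H2A histones and 3 were encoded by the mitochondrial genome. Probes of ribosomal protein and histone genes can also bind near-identical copies and pseudogenes, so their single levels are uncertain. A pair of genes known for the pluripotent state stood in the same range. Dppa5a, an RNA-binding protein of pluripotent cells, ranked 40 of 9062, with levels of 14.68, 14.60 and 14.93 on shCtrl 1, 2 and 3. Dnmt3b, the de novo DNA methyltransferase of the epiblast, ranked 60, with 14.37, 14.41 and 14.67. Neither varied by more than 0.33 between arrays, but a second probe of Dnmt3b gave 8.90, 8.81 and 8.78, and with the mean of all probes Dnmt3b stood in the brightest 4.13%.

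All 4 markers set for these cells were detected on all 3 arrays. Pou5f1 (Oct4), the factor that defines pluripotent cells, had levels of 12.98, 12.82 and 12.38 on shCtrl 1, 2 and 3 and ranked 262 of 9062, within the brightest 2.89%. Its second probe gave 12.22, 12.27 and 11.64. Probes of Pou5f1 can also bind its pseudogenes. Fgf5, the ligand that marks the epiblast after implantation, had 9.37, 9.50 and 10.04, and Eomes, a T-box factor of the streak and endoderm, had 9.15, 9.04 and 8.47, with a second probe at 8.44, 8.57 and 8.37. Nes (nestin), an intermediate filament of neural progenitors, had 7.60, 7.59 and 7.72, below the median level of detected genes, and its second probe was detected on 2 arrays at most. The 4 markers thus covered a range of ranks, with Pou5f1 in the brightest 2.89%, Fgf5 in the brightest 29.4%, Eomes in the brightest 40.8% and Nes in the brightest 60.3%. In these pooled cells, fewer cells of a type and less RNA per cell cannot be told apart.

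The start sites of 4 genes are shown to set the detected and undetected state beside sequence. Pou5f1 and Fgf5 were detected on all 3 arrays, and Pax6, a neural factor, and Alb, the liver's albumin, on none. Each window runs from 250 bases before to 50 after the RefSeq start site in build GRCm38.p6, 5′ to 3′ on the gene's strand, with each CpG, the dinucleotide that carries DNA methylation, in capitals. All 4 lie on the plus strand, at chr17:35505782-35506081 for Pou5f1, chr5:98253934-98254233 for Fgf5, chr2:105668646-105668945 for Pax6 and chr5:90460620-90460919 for Alb.
Pou5f1: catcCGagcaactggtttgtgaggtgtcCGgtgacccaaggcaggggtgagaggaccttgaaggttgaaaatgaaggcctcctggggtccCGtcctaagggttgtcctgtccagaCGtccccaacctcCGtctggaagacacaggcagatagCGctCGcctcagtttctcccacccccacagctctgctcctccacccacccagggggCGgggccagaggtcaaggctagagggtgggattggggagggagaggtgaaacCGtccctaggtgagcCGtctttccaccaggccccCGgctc
Fgf5: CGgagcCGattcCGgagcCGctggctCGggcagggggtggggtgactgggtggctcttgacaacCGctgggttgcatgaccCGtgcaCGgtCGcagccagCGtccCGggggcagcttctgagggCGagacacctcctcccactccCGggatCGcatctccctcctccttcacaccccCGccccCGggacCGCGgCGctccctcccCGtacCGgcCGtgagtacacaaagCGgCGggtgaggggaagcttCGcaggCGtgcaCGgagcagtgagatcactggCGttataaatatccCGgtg
Pax6: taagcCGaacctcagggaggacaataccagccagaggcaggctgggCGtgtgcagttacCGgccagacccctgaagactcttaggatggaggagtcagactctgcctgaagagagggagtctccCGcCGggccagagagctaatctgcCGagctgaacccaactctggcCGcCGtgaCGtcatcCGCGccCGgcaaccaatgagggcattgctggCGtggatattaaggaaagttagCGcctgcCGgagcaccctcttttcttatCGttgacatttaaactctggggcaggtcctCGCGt
Alb: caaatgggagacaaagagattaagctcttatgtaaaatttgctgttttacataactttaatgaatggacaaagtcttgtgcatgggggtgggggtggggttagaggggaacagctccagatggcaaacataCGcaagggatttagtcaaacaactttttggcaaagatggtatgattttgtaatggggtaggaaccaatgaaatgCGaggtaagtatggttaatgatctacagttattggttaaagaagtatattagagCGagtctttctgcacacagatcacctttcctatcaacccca
Pou5f1 held 11 CpGs, a ratio of 0.37 of observed over expected from its base composition, and Fgf5 held 29 (ratio 0.83). Pax6 held 18 (ratio 0.70) and Alb 3 (ratio 0.27). In these 4 windows detection and CpG content did not run together, since Pou5f1 had fewer CpGs than the undetected Pax6.

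The core pluripotency genes were present nearly throughout. Of 17 measured, 14 (82.4%) were detected on all 3 arrays, against 47.6% of all genes, and 7 of them were among the brightest 25%. Nanog had 13.08, 12.76 and 13.00 on shCtrl 1, 2 and 3 and ranked 218, and its second probe gave 9.84, 9.57 and 9.77. Phc1, a Polycomb subunit, had 12.48, 12.55 and 12.67, and Sall4, a zinc finger partner of Pou5f1 and Nanog, had 12.52, 12.50 and 12.23. None of these 3 differed between arrays by more than 0.32. Sox2, which binds DNA with Pou5f1, was dim by its probes, at 7.39, 7.77 and 8.01 with a second probe at 5.98, 6.60 and 6.29. Utf1, a chromatin-bound factor, differed most between arrays in this list, with 9.48 on shCtrl 3 against 8.28 on shCtrl 1 and 8.87 on shCtrl 2. Tdgf1 (Cripto), the co-receptor of Nodal, had 9.16 on shCtrl 3 against 8.30 and 8.27. Foxd3, Mycn and Fgf4 had no detected probe. Over the 14 genes the median difference of shCtrl 3 from the mean of the others was 0.12, and none reached 2-fold.

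**Figure D2:**
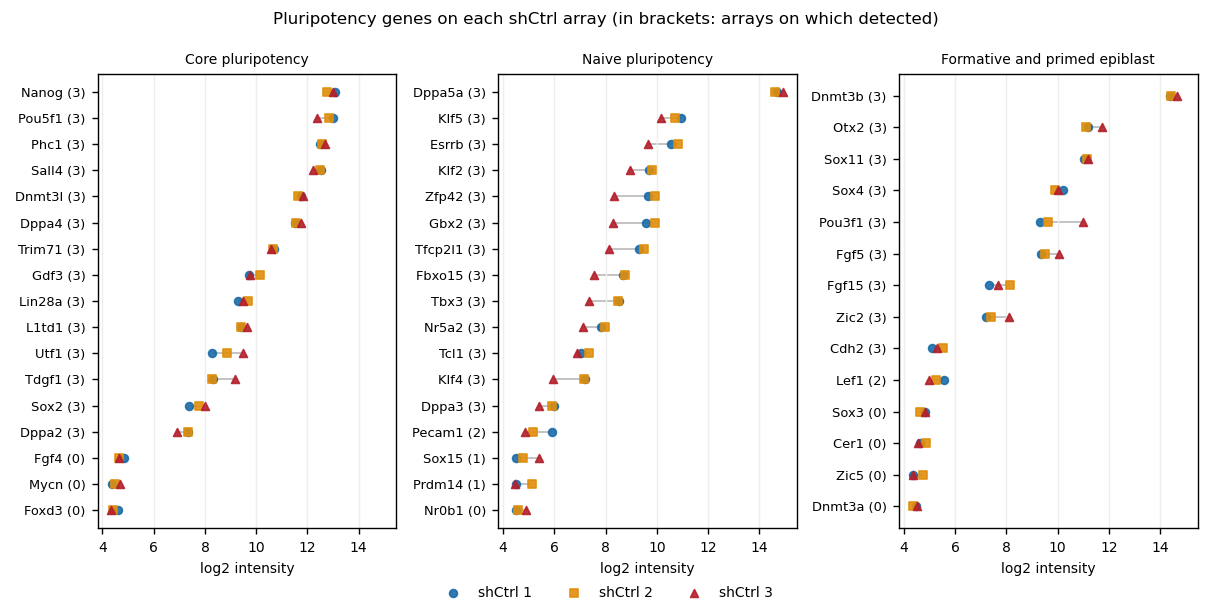
Normalized log2 intensity (horizontal axis) of each measured gene of 3 pluripotency lists on shCtrl 1 (circles), 2 (squares) and 3 (triangles), with the number of arrays on which it was detected in brackets. No core gene lies 2-fold apart on shCtrl 3, with Utf1 (0.91) and Tdgf1 (0.88) furthest, 12 of the 13 detected naive genes lie lower on shCtrl 3, and Pou3f1 lies higher there, at 11.00 against 9.32 and 9.63.

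The naive pluripotency genes were for the most part detected and differed between the arrays. Of 17 measured, 13 (76.5%) were detected on all 3 arrays, against 47.6% of all genes. Pecam1 was detected on 2, and Sox15 and Prdm14 on 1. Nr0b1 had no detected probe. On shCtrl 3, 12 of the 13 were lower than the mean of the others and 7 were at least 2-fold lower, where 1.29% of all genes were. The list was chosen with earlier results of these data known, so the excess may come from that choice. Zfp42 (Rex1), a zinc finger marker lost at exit from the naive state, had 8.34 on shCtrl 3 against 9.65 on shCtrl 1 and 9.92 on shCtrl 2. Gbx2, a homeobox target of LIF, differed most, with 8.28 against 9.58 and 9.94. Esrrb, an orphan nuclear receptor, had 9.66 against 10.55 and 10.84, and Tfcp2l1, a factor downstream of LIF and Stat3, had 8.14 against 9.32 and 9.51. Klf4, also a Stat3 target, had 5.94 against 7.20 and 7.14, and a second probe of Klf4 was not detected on shCtrl 3. In each of these genes shCtrl 3 lay outside the range of the other arrays, and the median difference of the list was -1.04, or -0.66 without background correction. Klf5 and Klf2, related Krüppel-like factors, had 10.17 and 8.96 on shCtrl 3, against 10.93 and 10.71 for Klf5 and 9.68 and 9.79 for Klf2. Dppa5a was the exception, at 14.93 against 14.68 and 14.60.

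The formative and primed genes were detected on all 3 arrays in 9 of 14 cases (64.3%), against 47.6% of all genes. After Dnmt3b came Otx2, the homeobox factor of the formative epiblast, with 11.20, 11.09 and 11.72 on shCtrl 1, 2 and 3, and Sox11, with 11.04, 11.13 and 11.17. Pou3f1 (Oct6), which takes part in the passage to the primed state, had 11.00 on shCtrl 3 against 9.32 on shCtrl 1 and 9.63 on shCtrl 2, a difference of 1.53 from their mean, the largest in the list. Fgf5 was higher on shCtrl 3 by 0.61 and Zic2, a zinc finger factor, by 0.81. The median over the 9 genes was 0.28 higher on shCtrl 3, and 1 gene passed 2-fold, where 1.51% of all genes did. Lef1 was detected on 2 arrays, and Sox3, Cer1, Zic5 and Dnmt3a on none.

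Primitive streak and mesoderm genes were detected in a share close to that of all genes, and this was the list in which shCtrl 3 departed furthest among those with more than 1 detected gene. Of 28 measured, 13 (46.4%) were detected on all 3 arrays, 5 on 1 or 2 and 10 on none. Fgf8, a ligand of the streak, ranked highest, with 11.73, 11.69 and 11.99 on shCtrl 1, 2 and 3, although its second probe was dim at 5.57, 6.46 and 5.93. Goosecoid (Gsc), a factor of the anterior streak, had 9.21, 9.09 and 9.15, and Etv2, a factor of blood and vessel precursors, had between 8.80 and 9.15. Fgf8, Gsc and Etv2 were level across the arrays, and Eomes was 0.62 lower on shCtrl 3.

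A group of other streak genes was lower on shCtrl 3, and some of these were not detected there. Lhx1, a LIM homeobox factor of the streak and node, had 5.18 on shCtrl 3 against 9.36 on shCtrl 1 and 9.27 on shCtrl 2. Mixl1, a homeobox factor of mesendoderm, had 6.02 against 9.54 and 9.41, and its second probe 5.99 against 9.23 and 8.87. Cdx2, a caudal factor of the posterior streak that also marks trophectoderm, had 6.89 against 10.08 and 9.90. For Lhx1, Mixl1 and Cdx2 the 2 other arrays agreed within 0.18, and shCtrl 3 lay more than 3 log2 units below them. Evx1, a homeobox factor of the posterior streak, had 8.85 against 10.68 and 10.90, and Wnt3, the ligand that starts the streak, had 5.47 against 7.34 and 7.73. Pdgfra, a receptor of early mesoderm, had 5.12 against 7.59 and 6.97. Mesp1, a factor of nascent mesoderm, was not detected on shCtrl 3 (4.71) and had 8.95 and 8.79 on shCtrl 1 and 2, and Wnt3a was likewise not detected there (4.42), against 7.16 and 6.79. In all, 8 of the 13 genes were at least 2-fold lower on shCtrl 3, where 1.29% of all genes were, and none was 2-fold higher. Since the list was chosen with earlier results of these data known, the excess may come from that choice. The median difference was -1.51, or -0.75 without background correction. At a detection p under 0.01, 10 of the 13 were detected, and Cdx1, Lhx1 and Pdgfra were lost. On shCtrl 3 Lhx1, Mixl1, Wnt3 and Pdgfra did not pass 6.04, the highest level of detected sensory receptor genes. The sizes of their differences are therefore uncertain. Factors of later heart, vessel and blood mesoderm, among them Hand1, Hand2, Nkx2-5, Tbx20, Tal1 and Kdr, had no detected probe on any array.

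**Figure D3:**
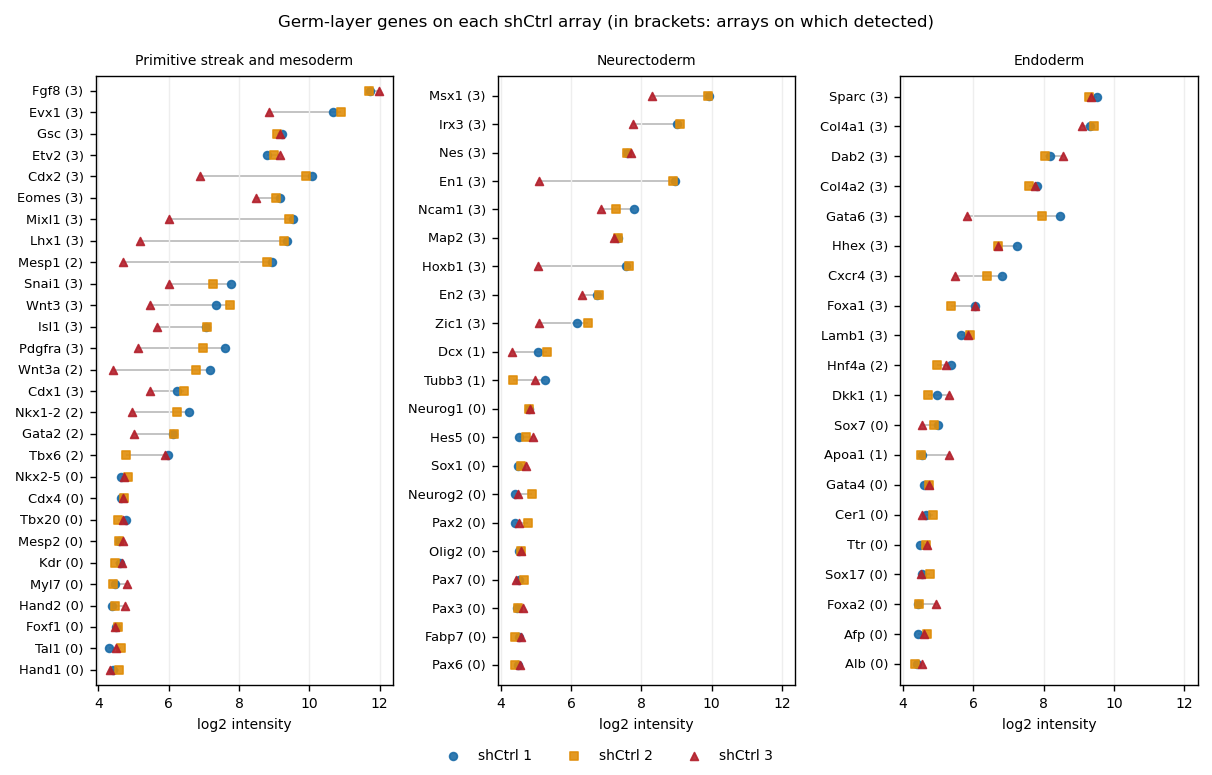
Normalized log2 intensity (horizontal axis) of each measured gene of the primitive streak and mesoderm, neurectoderm and endoderm lists on shCtrl 1 (circles), 2 (squares) and 3 (triangles), with the number of arrays on which it was detected in brackets. Lhx1, En1, Mixl1, Cdx2 and Gata6 lie lower on shCtrl 3, with differences of -4.13, -3.85, -3.45, -3.09 and -2.38, and Gsc, Nes and Sparc lie together on the 3 arrays.

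The neurectoderm list was detected in part. Of 21 measured genes, 9 (42.9%) were detected on all 3 arrays, 2 on 1 array and 10 on none. The share over all genes was 47.6%. Sox1 and Pax6, the factors that define neural precursors, were undetected, as were Pax2, Pax3, Pax7, Olig2, Neurog1, Neurog2, Hes5 and Fabp7, and 1 Sox1 allele of these cells is known to carry the reporter. Tubb3 and Dcx, cytoskeletal genes of young neurons, were each detected on 1 array. Among all 9 Pax genes measured, none was detected on all 3 arrays. The detected members were Nes, Map2, a microtubule protein of neurons, Ncam1, an adhesion molecule of neural cells, and 6 homeobox and zinc finger factors of body regions. Map2 had 7.33, 7.34 and 7.22 on shCtrl 1, 2 and 3 by 1 of its 9 probes, and Ncam1 had 7.78, 7.28 and 6.86. Msx1, a homeobox target of Bmp, had 8.30 on shCtrl 3 against 9.93 on shCtrl 1 and 9.89 on shCtrl 2, and Irx3 had 7.75 against 9.02 and 9.10. En1, a midbrain homeobox gene, had 5.08 against 8.95 and 8.90, and Hoxb1, a hindbrain and posterior gene, had 5.05 against 7.55 and 7.64, with a second probe at 5.15 against 7.07 and 7.10. In total 5 of the 9 genes were at least 2-fold lower on shCtrl 3, where 1.29% of all genes were. This excess too may come from the choice of the list, made with earlier results known. The median difference was -1.22, or -0.41 without background correction. At a detection p under 0.01, 6 of the 9 were detected, and En1, Hoxb1 and Zic1 were lost. On shCtrl 3 En1 and Hoxb1 lay at the level of dim sensory receptor probes, so the sizes of their differences are uncertain. Nes itself was 0.12 higher on shCtrl 3.

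In the endoderm list 3 of 8 factors and all matrix genes were detected. Of 20 genes measured, 9 (45%) were detected on all 3 arrays, against 47.6% of all genes. The 4 matrix genes were among them, led by Sparc with 9.51, 9.29 and 9.35 on shCtrl 1, 2 and 3 and Col4a1, a basement membrane collagen, with 9.31, 9.43 and 9.09. Dab2, an adaptor of visceral and parietal endoderm, followed with 8.18, 8.03 and 8.54. Gata6, a factor of primitive endoderm and mesendoderm, had 5.83 on shCtrl 3 against 8.46 on shCtrl 1 and 7.96 on shCtrl 2, the largest difference of the list, while its second probe was detected on no array. The factors Hhex and Foxa1 were detected on all 3 arrays, at 6.88 and 5.83. Cxcr4, a receptor of definitive endoderm and mesoderm, had 5.48 against 6.81 and 6.40. Sox17, Foxa2 and Gata4, which with Gata6 define endoderm, had no detected probe, and neither did Afp, Alb and Ttr, secreted products of visceral endoderm and liver.

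Markers of other cell types differed by list, with blood, 2-cell-like and fibroblast genes detected least. The muscle (44.4%), trophectoderm (41.7%) and germ line (41.7%) lists were detected in shares close to the 47.6% of all genes. Detected trophectoderm genes had a median level of 9.27, above the 8.28 of all detected genes. No blood gene of 10 measured was detected on all 3 arrays, with Ptprc and the embryonic globin Hbb-y on none and Gata1 on 1. In the fibroblast list 4 of 14 were detected and the collagens Col1a1, Col1a2 and Col3a1 on none, while Thy1, a surface protein also known on ES cells, had 9.28 on shCtrl 3 against 8.14 and 8.13. Myod1 and Myog were undetected, and the 4 muscle genes detected of 9 had levels of at most 7.15. In the neuron and glia list 7 of 11 (63.6%) were detected, above the 47.6% of all genes, but at a median level of 5.92, with the synapse gene Syn1 highest at 7.61, the astrocyte filament Gfap at 5.22, in the range in which sensory receptor probes also lay, and Snap25 on none. Of 12 trophectoderm genes 5 were detected, led by the keratins Krt8 (10.15) and Krt18 (9.27), which simple epithelia share, and Tfap2c, a factor of trophectoderm and germ cells, which had 8.43 on shCtrl 3 against 10.37 and 10.42. Gata3 was detected on shCtrl 1 and 2 only and Elf5 on none. Of 12 germ line genes 5 were detected, led by Kit at 9.31, with Prdm1 on none, Ddx4 on 2 arrays and Dazl at 5.35. Of 7 measured genes of the rare 2-cell-like state 1 (14.3%) was detected on all 3 arrays, and none at a detection p under 0.01. It was Zscan4c, whose near-identical copies can share its probe, with 5.20 on shCtrl 3 against 7.78 and 7.45. Tcstv1, Tcstv3 and Arg2 of the same list were detected on shCtrl 1 and 2 and not on shCtrl 3.

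LIF had been removed, and the parts of its pathway were measured beside the state of its targets. Of 17 genes, 12 (70.6%) were detected on all 3 arrays, against 47.6% of all genes. Lif itself and its receptor Lifr were detected on shCtrl 3 alone, at 5.15 and 5.38, each by 1 of several probes. These levels did not pass the 6.04 of detected sensory receptor genes, and 659 genes were detected on shCtrl 3 alone. The gp130 gene (Il6st) had 7.19, 6.86 and 7.00 on shCtrl 1, 2 and 3. All 4 transducers were detected, with Stat3 at 8.27, 8.36 and 8.11 and Jak1 at 9.65, 9.74 and 9.87. Socs3, the feedback inhibitor that Stat3 induces, had 6.55, 7.11 and 7.34, and Ptpn11 (Shp2), which carries the signal to Erk, ranked highest with 11.80, 11.85 and 11.85. Klf4 was the 1 gene of the list at least 2-fold lower on shCtrl 3.

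The Fgf pathway was detected from ligand to target. Of 25 genes, 16 (64%) were detected on all 3 arrays, against 47.6% of all genes. Among 8 ligands, Fgf8, Fgf5, Fgf17 and Fgf15 were detected on all 3, Fgf10 on shCtrl 1 and 2, Fgf1 on shCtrl 3, and Fgf4 and Fgf2 on none. Of 4 receptors, Fgfr2 had 7.62, 7.30 and 7.70 and Fgfr1 had 6.42, 6.44 and 6.12, and Fgfr3 and Fgfr4 were undetected. Dusp6, a phosphatase that Erk induces, had 11.80, 11.52 and 11.00, and Spry4, an inhibitor of the pathway, had 6.48, 6.53 and 6.83. All 3 target factors, Etv5, Egr1 and Etv4, were detected, at 10.34, 9.89 and 9.22. Fgf17 differed most, with 7.56 on shCtrl 3 against 9.08 on shCtrl 1 and 8.97 on shCtrl 2.

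The Wnt pathway was detected in 25 of 35 genes (71.4%), against 47.6% of all genes. At least 2-fold lower on shCtrl 3 were 5 of the 25, 3 of these ligands, where 1.29% of all genes were. Ctnnb1 (beta-catenin) had 12.46, 12.26 and 12.49 on shCtrl 1, 2 and 3, and Tcf7l1 (Tcf3), the repressor among the Tcf factors, had 11.96, 12.08 and 12.44. Axin2, a direct target that feeds back on the pathway, had 10.56, 10.55 and 10.23. Sp5, another direct target, had 9.71 on shCtrl 3 against 11.53 on shCtrl 1 and 11.48 on shCtrl 2. Of 9 ligands 5 were detected on all 3 arrays, and Wnt3, Wnt5b and Rspo3 were each at least 2-fold lower on shCtrl 3. Wnt3a, Wnt5a and Wnt6 were detected on shCtrl 1 and 2 and not on shCtrl 3. Wnt8a was the highest ranked ligand, with 9.80, 10.04 and 9.66. Of 7 receptors 6 were detected, and Fzd10 alone among them was 2-fold lower on shCtrl 3, with 8.95 against 10.42 and 10.31. The Wnt antagonists Sfrp1, Sfrp2 and Frzb were detected on all 3 arrays, Dkk1 on 1 and Cer1 on none.

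Nodal, the ligand that sustains the epiblast and patterns the streak, was level across the arrays by its brighter probe. It had 11.51, 11.56 and 11.55 on shCtrl 1, 2 and 3, and its second probe gave 9.18, 9.08 and 8.77. Of 22 genes in its list 16 (72.7%) were detected on all 3 arrays, against 47.6% of all genes. Among them were the receptor Acvr2b, at 12.03, 12.22 and 12.06, and the convertase Furin, which cleaves the Nodal precursor, at 10.61, 10.64 and 10.85. The inhibitors Lefty1 and Lefty2, which Nodal induces, were higher on shCtrl 3, with 11.87 for Lefty1 against 9.96 and 10.11, and 9.53 for Lefty2 against 8.54 and 8.51. Follistatin (Fst), an inhibitor of activin, ran the other way, with 9.39 against 10.74 and 10.54. Smad2, Smad3 and Foxh1, which carry the signal to DNA, were detected at 7.65, 8.81 and 7.90, and Cer1, Smad7 and Inhba had no detected probe.

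Bmp genes were detected in 14 of 24 cases (58.3%), against 47.6% of all genes. Bmp4 had 8.16, 8.06 and 8.11, and all 4 receptors were detected. Id1, the immediate target of Bmp signals in ES cells, had 10.59 on shCtrl 3 against 11.27 on shCtrl 1 and 11.25 on shCtrl 2, and Id3 had 7.89 against 8.48 and 8.59. Neither reached 2-fold, and Msx1 was the 1 gene of the list that did. The antagonists Nog, Grem1 and Bambi were undetected, and Chrd had 5.94.

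Notch and Hedgehog genes were detected on the receiving side more than on the sending side. Of 5 Notch ligands, Jag2 (6.58) was detected on all 3 arrays, Dll1 and Dll3 on 1, and Jag1 and Dll4 on none, while Notch1, Notch3 and Notch4 of 4 receptors were detected. Hes1 had 9.13, 9.36 and 9.58. In the whole list 10 of 22 (45.5%) were detected, close to the 47.6% of all genes. Rbpj, the factor through which all Notch receptors act, had no detected probe. Shh, Ihh and Dhh were detected on no array, against both Hedgehog receptors measured. Gli3 had 10.64, 10.67 and 10.82, and Smo had 9.32, 9.23 and 9.77. Gli1, a target of the pathway, was detected on shCtrl 3 alone, as were 659 genes in all. Ptch1, a receptor and also a target, had 8.43 on shCtrl 3 against 7.09 and 7.17. Its second probe, detected on 2 arrays, ran the other way, with 4.88 against 5.11 and 5.29. Whether the pathway was active was not tested.

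In the retinoic acid list most receptors, but no synthesis gene, were detected on all 3 arrays. The list was detected on all 3 arrays in 9 of 20 cases (45%), close to the 47.6% of all genes. Of 6 receptors 5 were detected, with Rxrb at 9.99, 10.16 and 9.90 and Rarg at 7.19, 7.46 and 7.58. Of the 4 synthesis genes, Aldh1a2, the main enzyme of the early embryo, was detected on 1 array and Rdh10 on 1 or 2. Aldh1a1 and Aldh1a3 were detected on none, as was the receptor Rarb. Cyp26a1, which degrades retinoic acid, was not detected on shCtrl 3 (4.75) and had 7.68 and 7.31 on shCtrl 1 and 2. In the insulin and Igf list 14 of 18 (77.8%) were detected, against 47.6% of all genes. Igfbp2, a binding protein, ranked highest with 11.47, 11.25 and 11.49, and Igf2, the embryonic growth ligand, had 9.36, 9.22 and 9.10. Igf1r, Insr and Igf2r were all detected. Igfbp5 differed most, with 7.60 on shCtrl 3 against 6.05 and 5.61.

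Glycolysis held some of the brightest genes outside translation. Of 29 genes 20 (69%) were detected on all 3 arrays, against 47.6% of all genes, and 11 of the 20 were among the brightest 25%. Ldha, which makes lactate, had 14.75, 14.68 and 14.80 and ranked 38 of 9062, Gapdh ranked 50 and Tpi1 ranked 70. Pkm, the pyruvate kinase of dividing cells, had 13.76, 13.74 and 14.04, although its second probe gave 5.96, 6.24 and 6.65. The glucose transporters Slc2a3 and Slc2a1 had mean levels of 13.55 and 13.15. Of the 20, 16 were higher on shCtrl 3 and the median difference was 0.40, where the median of all genes was -0.01. Aldoc, the aldolase of brain, was 2.54 higher on shCtrl 3 than the mean of shCtrl 1 (7.52) and shCtrl 2 (7.39). Pdk1, the kinase that closes pyruvate dehydrogenase, had 10.83 against 9.22 and 9.34, with a second probe at 8.19 against 5.88 and 6.24, and Eno2 had 8.25 against 6.86 and 7.00. These 3 genes were the 3 of the list that passed 2-fold, where 1.51% of all genes did, and the cause was not tested.

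Isoforms known from single tissues were also read. Across steps of glucose, respiratory, methionine and fat metabolism, broadly used forms were set beside tissue-restricted ones. The broad form was detected on all 3 arrays for 18 of 19 genes. The restricted form was detected for 9 of 21, close to the 47.6% of all genes. Mat2b, a subunit of methionine adenosyltransferase, was counted as its broad form, and Mat2a was not measured. Undetected were the liver and muscle transporters Slc2a2 and Slc2a4, the liver kinase Pklr, the sperm enzymes Gapdhs, Pgk2 and Pdha2, the heart and muscle subunits Cox6a2 and Slc25a4, the testis cytochrome Cyct and the liver enzyme Mat1a. Among the restricted forms that were detected, Pfkm (10.27), Cox7a1 (9.21), Aldoc (8.30) and Eno3 (8.19) had the highest levels. The 1 broad form without a detected probe was Cpt1a, the main gate of fatty acid import into mitochondria, while Cpt1c and Cpt1b were detected at 6.50 and 6.26.

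The mitochondrial lists were bright and even. In the TCA cycle 20 of 23 genes (87%) were detected, 13 among the brightest 25%, with Suclg1 at 12.44, 12.52 and 12.21 and citrate synthase (Cs) at 10.41, 10.55 and 10.31. Of 34 respiratory chain genes 23 (67.6%) were detected, at a median level of 12.46, led by Atp5b at 14.94, 14.95 and 14.82 and Cox5b at 13.91, 13.80 and 14.14. The share of all genes detected was 47.6%. No gene of either list differed 2-fold on shCtrl 3. Sdha and Ndufs1, core subunits without which their complexes do not work, had no detected probe. The uncoupling proteins Ucp1 and Ucp3 and the regulator Ppargc1a were undetected.

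One-carbon genes were detected in 14 of 20 cases (70%), against 47.6% of all genes, and 10 of the 14 were among the brightest 25%. Gldc, which splits glycine to yield one-carbon units, ranked highest, with 11.85, 11.98 and 12.66, followed by Gart, of purine synthesis, with 11.87, 12.12 and 11.95 and by Psat1, of serine synthesis, with 11.70 to 12.03. Tdh, the threonine dehydrogenase of mouse ES cells, had no probe under its symbol here, and Gcat, the next enzyme of that route, had 10.82, 10.86 and 11.25. No gene of the list reached 2-fold on shCtrl 3.

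Of 18 sterol and fatty acid synthesis genes 16 (88.9%) were detected, against 47.6% of all genes. At a detection p under 0.01 there were 13, and Fasn, Idi1 and Mvk were lost. Of the 16, 15 were higher on shCtrl 3, with a median difference of 0.53. Acly, which supplies acetyl-CoA, was even, with 12.61, 12.57 and 12.61. Fdps, of isoprenoid synthesis, had 12.43 on shCtrl 3 against 11.73 and 11.78, and Scd1, a fatty acid desaturase, had 9.18 against 7.98 and 7.88. Lss, Scd1 and Idi1 passed 2-fold, where 1.51% of all genes did. The fatty acid synthase Fasn was dim and went the other way, with 5.04 against 5.52 and 5.71. Fat oxidation genes were detected in 14 of 19 cases (73.7%), against 47.6% of all genes. They were led by Oxct1, which uses ketone bodies, at 11.50, 11.31 and 11.50. Of 15 amino acid transporters 8 (53.3%) were detected, close to the 47.6% of all genes. They were led by Slc7a3, a carrier of cationic amino acids, at 12.06, 12.07 and 12.09.

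Cell cycle genes were detected in 17 of 24 cases (70.8%), against 47.6% of all genes. They were led by Cdk4, Cdk1 and Mcm2, at 11.83 to 12.34 for the kinases and 11.52 to 11.80 for Mcm2. Ccne1, a cyclin that is high throughout the cycle of ES cells, had 9.73, 9.81 and 9.63. Ccnd2 had 8.77 on shCtrl 3 against 10.62 and 10.12 and Ccne2 had 6.06 against 7.48 and 7.08, the 2 genes of the list that differed 2-fold. Ccna2 was detected on 1 array. In the DNA methylation list 9 of 11 (81.8%) were detected, against 47.6% of all genes. Uhrf1, which guides maintenance methylation, had 12.67, 12.48 and 12.73. Dnmt1 had 10.55, 10.81 and 10.89 and the dioxygenase Tet1 had 10.10, 9.60 and 10.08. Atad2 itself, whose knockdown the series studies, had 6.28, 6.48 and 6.39, in the dimmest 25% of detected genes, and 1 of its 2 probes was detected.

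Epithelial and mesenchymal genes differed in opposite directions on shCtrl 3. Of 13 epithelial genes 11 were detected on all 3 arrays, at a median of 0.53 higher on shCtrl 3, and 3 passed 2-fold, where 1.51% of all genes did. These were the claudins Cldn6, with 12.35 against 11.24 and 11.42, Cldn4, with 10.08 against 8.47 and 8.73, and Cldn3, with 7.78 against 5.95 and 6.23. Cdh1 (E-cadherin) had 10.82 on shCtrl 3 against 10.28 and 10.31. Of 10 mesenchymal genes 7 were detected, at a median difference of -1.11, and 4 were at least 2-fold lower, against 1.29% of all genes. Both sets were chosen with earlier results of these data known, so these excesses may come from that choice. The share of all genes detected was 47.6%. Neither set was read apart without background correction, where the median of the whole list moved from 0.21 to 0.10. Several mesenchymal genes were dim, and Cdh2, Zeb1 and Zeb2 were lost at a detection p under 0.01, so the sizes of their differences are uncertain. Vimentin (Vim) had 7.27 on shCtrl 3 against 8.91 and 8.87, Snai1, which represses Cdh1, had 6.01 against 7.77 and 7.26, Twist1 had 6.21 against 7.86 and 7.42, and Zeb1 had 5.45 against 6.78 and 6.35. Cdh2 (N-cadherin) had 5.31 and Epcam had no detected probe.

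**Figure D4:**
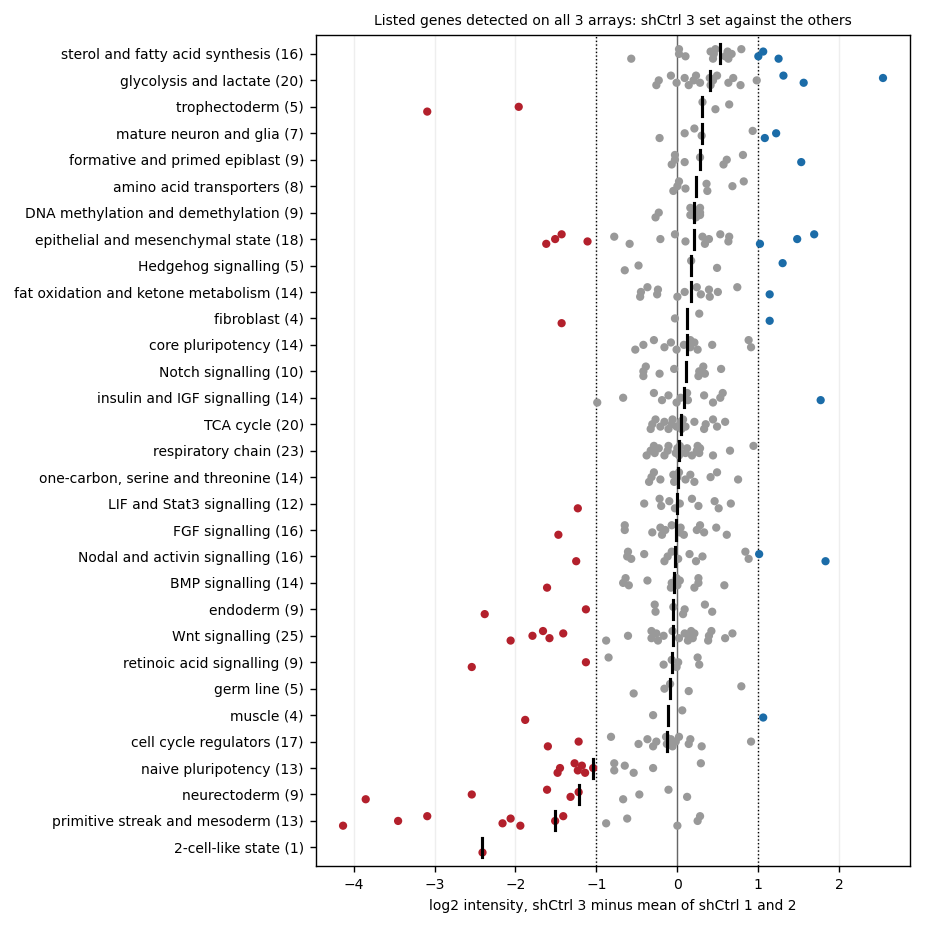
Difference in normalized log2 intensity between shCtrl 3 and the mean of shCtrl 1 and 2 (horizontal axis) for each listed gene detected on all 3 arrays; vertical bars are list medians, numbers in brackets count the genes, dotted lines mark 2-fold and coloured points lie past it. The medians of the streak, neurectoderm and naive lists lie at -1.51, -1.22 and -1.04 (-0.75, -0.41 and -0.66 without background correction), those of the glycolysis and sterol lists at 0.40 and 0.53.

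Clone-named and predicted loci were left out of the 9062 genes for the extremes. The 5 lowest on shCtrl 3 were then Lhx1, En1, Pisd-ps2, Mixl1 and Cdx2, with differences of -4.13, -3.85, -3.80, -3.45 and -3.09. Pisd-ps2 is a pseudogene, and the others are homeobox genes of streak or body axis, as is Hoxb1, which followed at -2.54. At a detection p under 0.01, Lhx1, En1 and Hoxb1 were not detected on all 3 arrays. The 5 highest were Ier3, Bhlhe40, Aldoc, Gadd45b and Rgs11. Ier3, an immediate early gene, had 10.15 on shCtrl 3 against 7.07 on shCtrl 1 and 7.47 on shCtrl 2. Bhlhe40, a factor of the clock, had 9.53 against 6.93 and 7.01. Gadd45b, a stress gene, had 8.09 against 5.61 and 5.77. Over the 137 genes higher and the 117 lower, shCtrl 1 and 2 differed from each other by a median of 0.17 and 0.18. Of the genes detected on 2 arrays, 265 were detected on shCtrl 1 and 2 only, 275 on shCtrl 1 and 3 only and 281 on shCtrl 2 and 3 only, and of those detected on 1 array, 659 were detected on shCtrl 3, 417 on shCtrl 1 and 425 on shCtrl 2. In the streak list Mesp1, Nkx1-2, Gata2 and Wnt3a were detected on shCtrl 1 and 2 only, and no gene on shCtrl 3 only.

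Detected and undetected genes differed in the sequence at their start sites, which was no part of how they were chosen. Of 17937 protein-coding genes measured outside chromosome 18 and the mitochondrial genome, 14876 (82.9%) had a RefSeq window like those printed above, with 84.2% of genes detected on all 3 arrays covered and 82% of those detected on none. The ratio of observed to expected CpG had a median of 0.79 in the 7329 windows of genes detected on all 3 arrays, against 0.28 in the 5756 windows of genes detected on none, and was above 0.6 in 76.4% against 24.8%. Genes detected on 1 or 2 arrays lay between, at 0.52. Among detected genes the share above 0.6 was 85.1%, 80.4%, 75.8% and 63.5% in the 4 groups of equal size from the brightest to the dimmest. The letters TATAAA, searched on both strands, were in 7% of the windows of genes detected on all 3 arrays, against 19.9% on none and 12.6% of all windows. GGGCGG, also on both strands and itself holding a CpG, was in 67.8% against 28.1%, and in 50.2% of all windows. With the last listed start site of each gene the median ratios were 0.78 and 0.27. Genes are not replicates and related genes share sequence, so these shares carry no test.

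**Figure D5:**
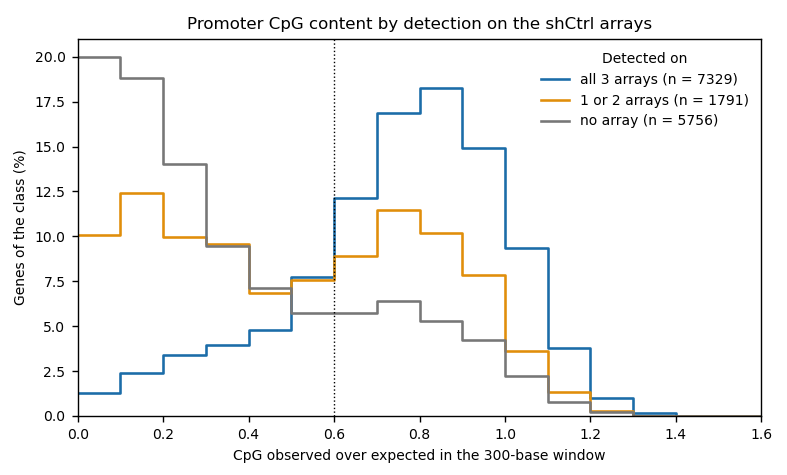
Distribution of the CpG ratio (horizontal axis, observed over expected in the window around the start site) as a share of the genes of each detection class (vertical axis, %), in steps of 0.1, for genes detected on all 3, on 1 or 2 and on no shCtrl array; the dotted line marks 0.6. Genes detected on all 3 arrays peak above 0.6, where 76.4% of them lie, and of undetected genes 24.8% lie above 0.6.

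Single genes did not follow the classes. Nanog, ranked 218, had a ratio of 0.19 with 4 CpGs, Nodal had 0.23 with 5 and Esrrb 0.27 with 7, close to the 0.27 of Alb in the window printed above. Sox1, undetected, had 1.07 with 37 CpGs, above the 0.82 of Sox2 with 27. Among the pluripotency genes Klf4 (0.97) and Dnmt3b (0.69) had high ratios, and Pou5f1 (0.37) a low one.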

How the data were processed

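Total RNA of the 3 shCtrl samples was read on Illumina MouseWG-6 v2.0 beadchips. Per probe, a detection p-value and an intensity before normalization were deposited by the authors, with a second table of processed intensity, used as an alternative on the log2 scale. Its normalization is not given in the sources used here. All deposited detection p-values were whole multiples of 1 part in 936, the number of negative controls.

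The intensity of all 6 arrays was background-corrected, offset by 16 and quantile-normalized with the neqc function (limma 3.58.1, R 4.3.3). The offset and remaining background understate differences of dim probes. Of the probes, 34885 carried 1 gene symbol, 18 several and 10378 none, and 34807 symbols were updated through Entrez with the gene table of GRCm38.p6. Each gene was represented by the probe detected on most arrays, then by the brightest. With 1 group there is no test between groups, and differences of shCtrl 3 are values. Members and the 32 gene lists, compiled from general knowledge, were chosen with earlier results of these data known. Named genes were the defining members of each list, its 3 brightest and the member that differed most on shCtrl 3. The extremes over all genes, Atad2 and the study's RT-qPCR genes were also named. Clone-named and predicted loci were left out of the extremes. Further members were named with their values already known. The primer genes Afp, Pax3 and Gata4 were undetected, and T had no probe under its symbol. Promoter windows are RefSeq sequences of build GRCm38.p6 and include no gene of chromosome 18, so the comparison was limited to the other chromosomes after this was seen. The calculation was tested on simulated data. The number of arrays limits the precision.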

Additional observations from a re-analysis of the deposited data

How the results depend on the processing

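No paired analysis was possible because the values describe 1 group and come from no test. The counts of probes and genes detected stayed within 1.5 times at a detection p under 0.01 and without any 1 array: 13933 to 16368 probes and 8301 to 9351 genes on all 3 arrays (main 15683 and 9062), and 315 of the 352 listed genes that were detected at 0.05. Of the list counts 4 changed by more, all of dim genes, in the germ line, 2-cell-like, muscle, and neuron and glia lists. The number of genes at least 2-fold higher on shCtrl 3 depended on the handling of background: 137 in the main processing, 35 with no background correction, 35 with the authors' processed values, 72 with an offset of 50 and 83 with the mean of all probes. The number at least 2-fold lower was 117 in the main processing, and 27, 29 and 59 under the first 3 of these. The share of lower among these genes stayed between 43.0% and 48.8%. The median SD over the arrays was 0.12 without background correction and with the authors' values, and lay between 0.10 and 0.19 with 1 array left out, lowest without shCtrl 3. The list medians of the streak genes (-0.75 with the authors' values), the naive genes (-0.68), the neurectoderm genes (-0.41) and the sterol genes (0.43) kept their sign under each alternative. The order of genes by level correlated with the main order at 0.997 or above (Spearman, across genes) under each alternative except the mean of all probes, at 0.853, which moved Fgf8 to the brightest 23.6%, Esrrb to 41.5%, Dnmt3b to 4.13% and Pkm to 12.5%. The choice of the last listed start site and the limit to genes outside chromosome 18 were added after seeing the data.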

Other observations

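Genes that dividing cells widely use, among them Sdha, Ndufs1, Rps20 and Rps23, and genes known to be expressed in ES cells, among them Epcam, Rbpj, Dnmt3a and Fgf4, had no probe detected on any shCtrl array. For genes with more than 1 probe, 2920 of 9172 had a probe detected on all 3 arrays and another detected on none. Olfactory receptors detected on all 3 arrays were Olfr724, Olfr985, Olfr748, Olfr378, Olfr982 and Olfr1317, at 5.24 to 6.04. Of 38 Hox genes measured, 9 (23.7%) were detected on all 3 arrays, against 47.6% of all genes, with Hoxb1 at the highest level of 6.75. At least 2-fold lower on shCtrl 3 were 3 of the 9, where 1.29% of all genes were. Of 10 Frizzled receptors 6 (60%) were detected on all 3 arrays and Fzd1 on none, against 4 of 19 Wnt ligands (21.1%) and 47.6% of all genes.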
